A study of Mus musculus with 10 samples.

Results

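The lecticans, link proteins and partner genes of the chondroitin and hyaluronan matrix of the nervous system were followed in mouse spinal cord. The set has 10 genes, chosen by symbol out of 21936 in the deposited table: the lecticans Acan, Bcan, Ncan and Vcan, the link proteins Hapln1, Hapln2 and Hapln4, and the partners Tnr, Ptprz1 and Has2. All 10 were found, 1 row each, and all 10 passed the filter on low counts. The 10 samples are RNA sequencing libraries of spinal cord taken at day 14 from wild-type mice with experimental autoimmune encephalomyelitis (EAE), a model of multiple sclerosis with immune attack on central myelin. The 5 samples titled Nar belong to the naringenin group, naringenin being a citrus flavonoid, and the 5 titled EAE are its comparison group. The treatment field of the labels names naringenin for both groups, so the titles give the grouping, and the vehicle or treatment of the EAE group is not known here. The sources used here do not state strain, age, sex, dose or how EAE was induced, and no spinal cord without EAE was analysed here. No label ties each sample to its own animal. The p-values therefore cover the spread of these samples alone, which may be technical.

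Hyaluronan is a long sugar polymer that synthases such as HAS2 extrude from the cell membrane. Lecticans bind it through one end, carry chondroitin sulfate chains along their middle, and bind tenascin-R, the product of Tnr, through a lectin domain at the other end, while link proteins clamp lecticans to hyaluronan. Around neurons this matrix forms perineuronal nets, at nodes of Ranvier it fills the perinodal space, and in glial scars reactive astrocytes and oligodendrocyte precursors deposit it, where its chondroitin chains are known to hinder axon growth and remyelination.

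Sample totals were 14504726 to 15139706 counted reads in Nar and 16658798 to 18961501 in EAE. Mitochondrial reads made up 6.69 to 7.51% of counts in Nar and 4.62 to 7.01% in EAE. In the edgeR quasi-likelihood fit of 14595 genes, 574 (3.93%) passed an adjusted p of 0.05, 230 (1.58%) higher and 344 (2.36%) lower in Nar. Levels are given in counts per M reads (CPM). In Nar 4 the 8 microglia and macrophage markers summed to 649.5 CPM, above the 474 to 627 of EAE, while Nar 1, 2, 3 and 5 had 237 to 268. As a check for central nervous tissue, 12 neuron markers summed to 8028 to 10577 CPM and 8 mature oligodendrocyte markers to 23296 to 37220 CPM over the 10 samples, with 0 of these markers at 0 reads. These markers do not separate spinal cord from brain, so the spinal cord label itself was not checked. Here and below, a marker is at 0 reads only if it had no read in any of the 10 samples.

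The matrix genes were expressed at the same order of magnitude in both groups, and 0 of the 10 passed the test of Nar against EAE, beside 3.93% of all genes tested. At an unadjusted edgeR p below 0.05 there were 3, Hapln2, Tnr and Ptprz1, where 22.5% of all genes lay below that value. The 1 member that the DESeq2 Wald test and limma-voom called was Hapln2, where those tests called 8.97% and 6.04% of genes. Without Nar 4, edgeR called it too, beside 10.1% of genes. An exact permutation test per gene called 0 members and 0 genes. With 5 against 5 samples its smallest possible two-sided p was 0.0079. In these data that value came to 0.137 after adjustment over all genes, so no gene could pass. Of the 10 log2 fold changes (Nar minus EAE), 3 were above and 7 below 0, with a median of −0.15 against 0.02 over all genes tested. The group ranges of CPM were apart in 1 of the 10 genes, Ptprz1, lower in Nar. Ranges were apart in 5.79% of all genes tested (3.12% lower and 2.67% higher in Nar).

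On the scale of the authors' FPKM, reads per kilobase of gene length and per M reads, the levels spanned from 0.168 for Has2 to 104 for Hapln2 (means of Nar, n = 5). In Nar the order from high to low was Hapln2, Bcan (70.4), Hapln4 (44.8), Ptprz1 (11.6), Ncan (8.18), Tnr (6.91), Hapln1 (4.40), Vcan (3.26), Acan (2.31) and Has2, and no neighbours in this order overlapped over the 5 samples. In EAE the order was the same except that Tnr (9.57) stood above Ncan (8.84), and 5 neighbouring pairs overlapped: Hapln2 with Bcan, Ptprz1 with Tnr, Tnr with Ncan, Hapln1 with Vcan, and Vcan with Acan. The abundant members were thus the oligodendrocyte link protein gene Hapln2 and the brain lectican gene Bcan, while the aggrecan gene Acan and the synthase gene Has2 were the lowest.

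**Figure D1:**
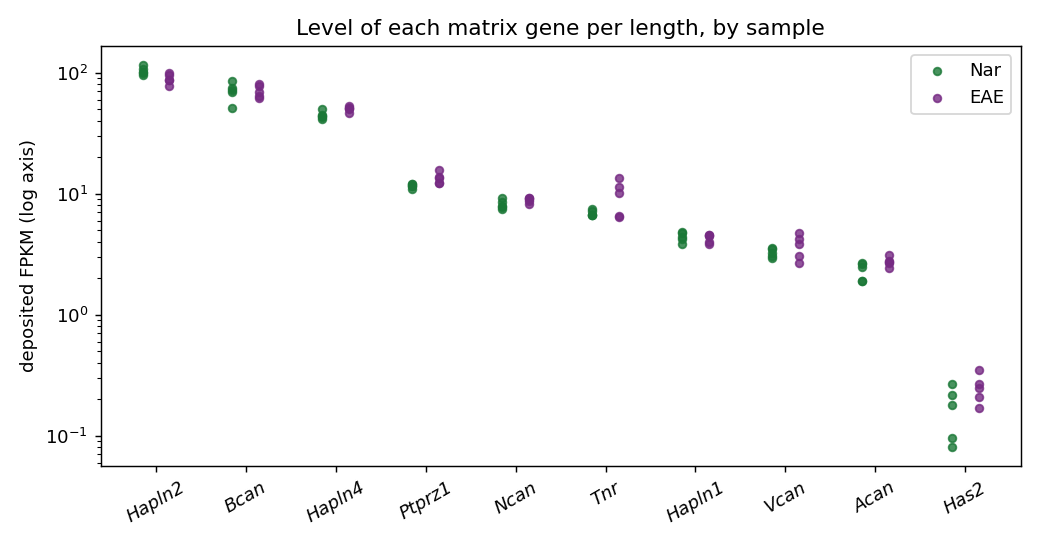
Deposited FPKM (log axis) of the 10 matrix genes, ordered by their mean, with 1 point per sample for Nar and EAE (5 each). Hapln2, Bcan and Hapln4 lie above 40 FPKM in all 10 samples and Has2 lies below 0.4 in all 10.

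Bcan codes for brevican, a lectican of the nervous system that astrocytes and oligodendrocyte precursors make. It was measured at 348, 288, 297, 209.6 and 302 CPM in Nar 1 to 5 and at 279.7, 327, 325, 252 and 244 CPM in EAE 1 to 5. The groups overlapped over almost their whole range, and Nar held both the highest sample, Nar 1, and the lowest, Nar 4. The log2 fold change was 0.02 (SE 0.126, 95% interval −0.26 to 0.29, edgeR adjusted p = 0.952), and its sign turned under 5 of the other settings and on leaving out Nar 1, 3 or 5 or EAE 4 or 5. Bcan supplied 77.7 to 86.8% of the summed FPKM of the 4 lectican genes in Nar and 79.1 to 84.6% in EAE, so lectican mRNA was mostly brevican mRNA in all 10 samples.

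Ncan codes for neurocan, a lectican that astrocytes raise after injury. Its levels were 56.3, 57.9, 54.3, 66.6 and 62.0 CPM in Nar and 63.8, 62.9, 67.5, 63.3 and 57.7 CPM in EAE. Nar 4 was the highest of its group and lay within the EAE range, and the groups overlapped. edgeR gave a log2 fold change of −0.09 (SE 0.0679, 95% interval −0.23 to 0.06, edgeR adjusted p = 0.475). Summed astrocyte markers (8 of 8 detected, 0 at 0 reads) stood at 5633 to 5909 CPM in Nar 1, 2, 3 and 5, at 8337 in Nar 4 and at 7772 to 8991 in EAE, and 4 of the 8 fell: their part in the levels of Ncan, Bcan and Ptprz1 was not tested. In bulk tissue, fewer cells of a type and less RNA per cell cannot be told apart.

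Acan codes for aggrecan, the main lectican of perineuronal nets and also of cartilage. It was measured at 14.4, 20.2, 19.96, 14.2 and 18.4 CPM in Nar and 19.7, 20.7, 20.9, 22.2 and 17.9 CPM in EAE, from 211 to 418 reads per sample. Nar 1 and Nar 4 lay below all EAE samples, and the other 3 Nar samples lay within the EAE range. Its log2 fold change was −0.22 (SE 0.113, 95% interval −0.46 to 0.02, edgeR adjusted p = 0.267). Of 15 cartilage and bone markers, 8 passed the filter on low counts and 1 of them fell. The 15 summed to 40.4 to 52.6 CPM in Nar and 47.2 to 54.7 in EAE. None of the 15 lacked reads in all samples together, zeros in single samples were not counted, and the cartilage matrix gene Matn1 was below the filter. Their part in Acan was not tested.

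Vcan codes for versican, the most widely expressed lectican, made in the spinal cord by oligodendrocyte precursors among other cells. Gene counts do not separate its splice forms, which differ in the number of chondroitin chains. The levels were 46.7, 43.4, 51.5, 52.2 and 44.3 CPM in Nar and 60.5, 44.5, 39.9, 66.3 and 54.0 CPM in EAE. EAE 1, 4 and 5 lay above all Nar samples and EAE 3 below all of them, so the EAE samples were spread on both sides of Nar. Nar minus EAE came to a log2 fold change of −0.16 (SE 0.125, 95% interval −0.43 to 0.11, edgeR adjusted p = 0.482). The 8 markers listed for oligodendrocyte precursors summed to 525 to 588 CPM in Nar and 478 to 549 in EAE (2 rose, 0 fell, 0 at 0 reads, median log2 fold change 0.15). Among them are Olig1, Olig2 and Sox10, genes of the whole oligodendrocyte lineage, so the sum is not one of precursors alone. The part of these markers in Vcan, Bcan and Ptprz1 was not tested.

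**Figure D2:**
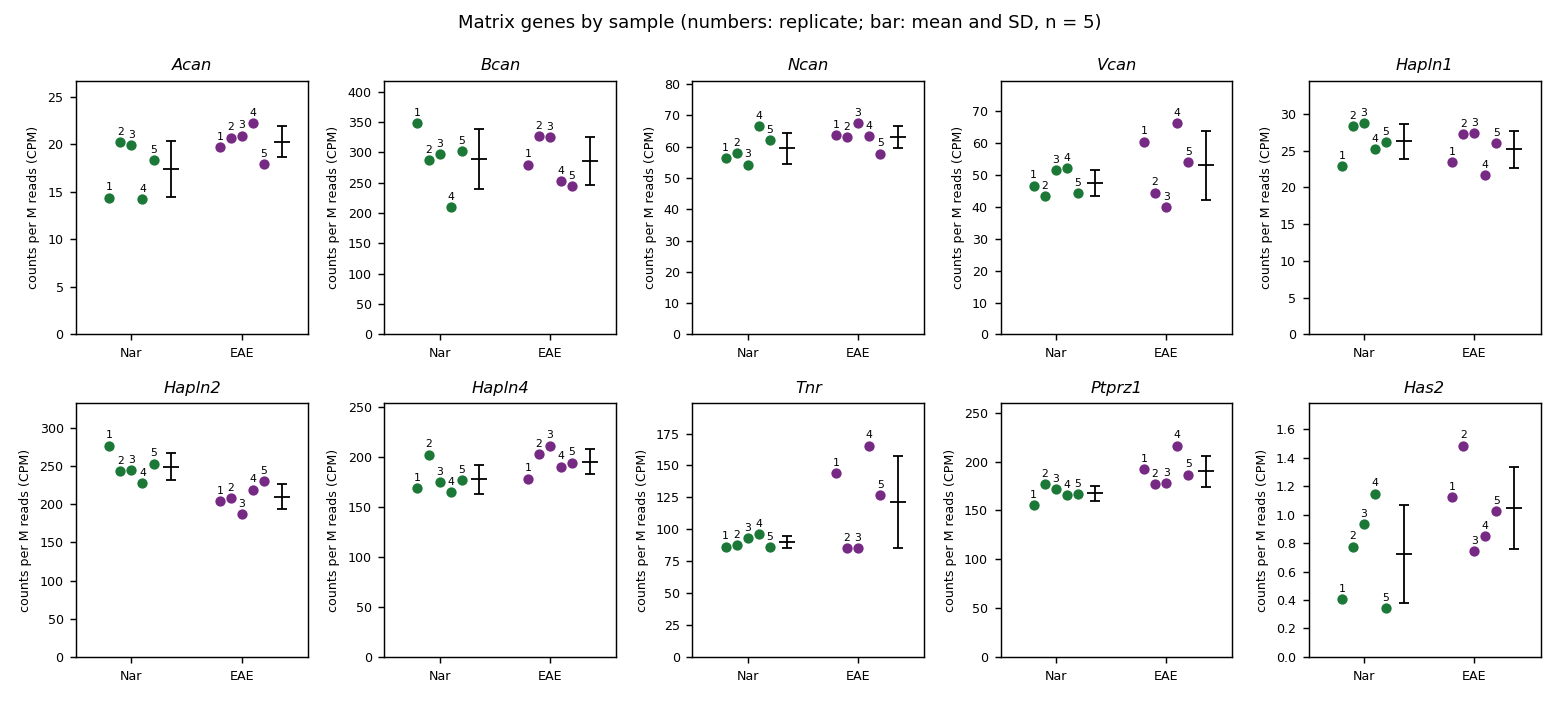
CPM of the 10 matrix genes by group, 1 panel per gene with an axis from 0; points are samples numbered by replicate and the bar beside each group is the mean with its SD (n = 5). Tnr and Vcan show EAE 1, 4 and 5 above Nar and EAE 2 and 3 near or below it, and Ptprz1 is the only panel in which the groups are apart.

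Tnr codes for tenascin-R, a matrix glycoprotein of oligodendrocyte lineage cells and some neurons that cross-links lecticans. The levels were 86.5, 87.6, 93.0, 96.2 and 85.8 CPM in Nar and 144, 85.4, 85.0, 166 and 127 CPM in EAE. The 5 Nar samples lay close together (89.8 ± 4.54 CPM, SD, n = 5), while the EAE samples were split, with EAE 2 and 3 just below all Nar samples and EAE 1, 4 and 5 above them (121 ± 35.8 CPM, SD, n = 5). The log2 fold change was −0.43 (SE 0.177, 95% interval −0.83 to −0.04, edgeR adjusted p = 0.184). An exon overlap with the antisense gene Gm38039 covers 3.44% of the exon bases of Tnr; the protocol names no strand-marking step, so reads of either gene there cannot be told apart.

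Ptprz1 codes for a receptor tyrosine phosphatase that bears chondroitin chains and whose secreted form is phosphacan, a matrix component of astrocytes and precursors. It was measured at 156, 177, 172, 166 and 167 CPM in Nar and 193, 177, 178, 216 and 187 CPM in EAE. All 5 Nar samples lay below all 5 EAE samples, with the nearest pair, Nar 2 and EAE 2, at 176.7 and 177.1 CPM. The log2 fold change was −0.18 (SE 0.0640, 95% interval −0.32 to −0.05, edgeR adjusted p = 0.118), and the two-sided exact permutation p of 0.0079 was the smallest that 5 against 5 samples allow (0.137 adjusted over all genes). The single-gene interval lies below 0, but it is not adjusted for the number of genes, and the adjusted test was not passed under any of the 23 other settings run.

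Tnr, Vcan and Ptprz1 are the longest genes of the set (12867, 14462 and 14245 bases in the deposited length column), and in each of them EAE 1, 4 and 5 were higher than EAE 2 and 3. The samples differed in a length trend over all genes. Among the 1465 tested genes longer than 10 kb, the median log2 CPM relative to the mean of the 10 samples was 0.05, 0.14 and 0.11 in EAE 1, 4 and 5, −0.12 and −0.16 in EAE 2 and 3, and −0.03 to 0.04 in Nar. Among the 1726 genes of up to 2 kb the order was the opposite, at −0.10, −0.27 and −0.17 against 0.10 and 0.15 in the EAE samples.

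With each sample's length trend taken out, a setting chosen after seeing the data, Tnr stood at 87.2, 88.2, 93.6, 97.4 and 84.0 CPM in Nar and 139, 93.1, 96.5, 149.5 and 118 CPM in EAE. EAE 1, 4 and 5 remained above all Nar samples. The log2 fold change of Tnr was −0.40 in this fit (edgeR adjusted p = 0.0626), that of Vcan −0.14 (0.310) and that of Ptprz1 −0.18 (0.0748). After the correction Ptprz1 stood at 157, 177, 173, 169 and 162 CPM in Nar and 185, 195, 204, 195 and 173 CPM in EAE, where the groups overlapped through EAE 5. The mitochondrial share was 5.71, 4.62 and 5.19% in EAE 1, 4 and 5 against 5.92 and 7.01% in EAE 2 and 3. It was thus lower where these 3 genes were higher before the length correction. With that share as a covariate the log2 fold changes of Tnr (0.06) and Vcan (0.17) turned sign, neither passing the test (edgeR adjusted p = 0.919 and 0.607), and that of Ptprz1 shrank from −0.18 to −0.05 (edgeR adjusted p = 0.813). Of the EAE samples, only EAE 3 lay within the Nar range of the share (6.69 to 7.51%). The fit can therefore hardly separate the share from the group. Whether RNA quality differed between these samples was not tested.

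**Figure D3:**
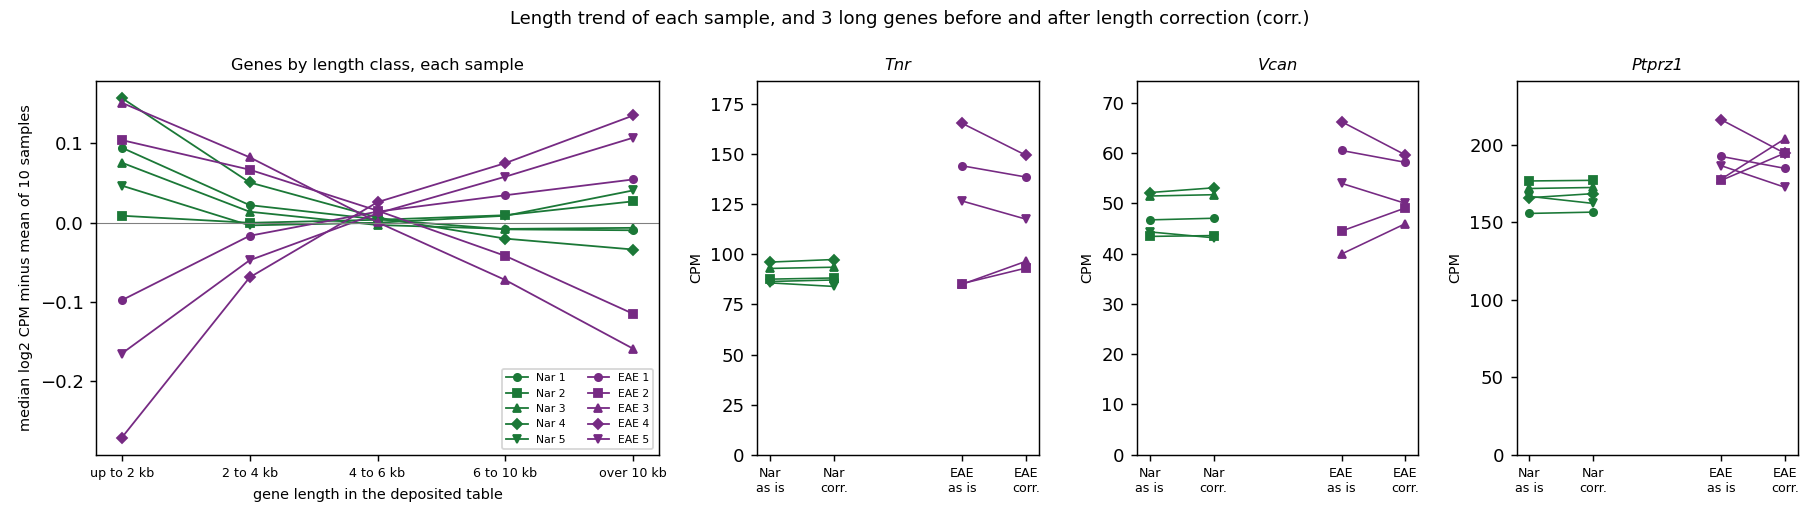
Left, median log2 CPM of genes in 5 classes of length, relative to the mean of the 10 samples, with 1 line per sample (Nar green, EAE purple). Right, CPM of Tnr, Vcan and Ptprz1 per sample as measured and after the length trend was taken out (axes from 0); Tnr stays split within EAE after the correction, and the Ptprz1 groups meet.

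The 3 genes were searched for shared letters upstream of their starts, because before the length correction they were high in the same EAE samples. After it this held for Tnr and Vcan but not for Ptprz1, which among EAE was highest in EAE 3 (204 CPM) and lowest in EAE 5 (173 CPM). The promoters below are RefSeq's (GRCm38.p6), 5′ to 3′ on the gene's strand, 250 bases that end before the start and lie outside annotated exons, at chr1:159523519-159523768 (plus strand) for Tnr, chr13:89742513-89742762 (minus) for Vcan and chr6:22875252-22875501 (plus) for Ptprz1. Capitals mark the GC box GGGCGG or its reverse complement CCGCCC.
Tnr: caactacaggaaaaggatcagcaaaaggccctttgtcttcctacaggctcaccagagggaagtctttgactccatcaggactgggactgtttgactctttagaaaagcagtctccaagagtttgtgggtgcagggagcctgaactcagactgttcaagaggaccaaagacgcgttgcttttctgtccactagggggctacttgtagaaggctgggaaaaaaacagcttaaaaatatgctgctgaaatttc
Vcan: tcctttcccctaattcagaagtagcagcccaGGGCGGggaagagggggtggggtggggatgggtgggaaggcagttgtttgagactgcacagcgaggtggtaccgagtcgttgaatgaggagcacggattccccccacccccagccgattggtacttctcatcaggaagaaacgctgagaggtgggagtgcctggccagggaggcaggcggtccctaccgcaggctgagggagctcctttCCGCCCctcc
Ptprz1: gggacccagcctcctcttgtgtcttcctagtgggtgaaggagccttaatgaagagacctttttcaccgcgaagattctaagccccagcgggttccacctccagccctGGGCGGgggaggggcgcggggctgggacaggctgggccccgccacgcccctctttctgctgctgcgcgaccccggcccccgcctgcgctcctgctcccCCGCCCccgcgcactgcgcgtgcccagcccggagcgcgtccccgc
Vcan and Ptprz1 have 2 GC boxes each and Tnr has 0, and the windows hold 62.4, 71.6 and 46.8% G and C. A GC box was found in 32.7% of 32851 RefSeq promoters over the same 250 bases on both strands. The TATA box TATAAA (12.4% of promoters) and the SOX motif AACAAT (9.42%), or their reverse complements, were in 0 of the 3 windows; no 2 of these motifs overlapped. These are matches of letters, not binding sites. RefSeq promoters were matched for 8 of the 10 genes, not for Hapln4 and Has2.

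The link protein genes came closest to a difference through Hapln2, which codes for the link protein that oligodendrocytes place at nodes of Ranvier. Hapln2 was measured at 277, 243, 245, 228 and 253 CPM in Nar and 204, 208, 187, 219 and 231 CPM in EAE. The lowest Nar sample, Nar 4, lay just below the highest EAE sample, EAE 5, and the other 4 Nar samples lay above all EAE samples. Means were 249 ± 17.9 against 209.8 ± 16.3 CPM (SD, n = 5 each), and the log2 fold change was 0.25 (SE 0.0678, 95% interval 0.10 to 0.39, edgeR adjusted p = 0.0582). The adjusted p was under 0.05 by the DESeq2 Wald test (0.0140), by limma-voom (0.0482) and by edgeR without Nar 4 (0.0189), and ranged from 0.0524 to 0.176 under the other 20 settings. The 8 mature oligodendrocyte markers summed to 30771 to 37220 CPM in Nar and 23296 to 32140 in EAE, with 3 of 8 higher in Nar and 0 at 0 reads; their part in the Hapln2 values was not tested.

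Hapln4, the brain link protein of perineuronal nets around large neurons, was measured at 169, 203, 175, 165 and 177 CPM in Nar and 178, 203, 212, 190.5 and 195 CPM in EAE. Nar 1, 3, 4 and 5 lay below all EAE samples and Nar 2 lay with the upper EAE samples. Its log2 fold change was −0.14 (SE 0.0670, 95% interval −0.28 to 0.0054, edgeR adjusted p = 0.237). Summed neuron markers were 8563 to 10099 CPM in Nar, highest in Nar 2, and 8028 to 10577 in EAE, highest in EAE 3, the samples that were also highest in Hapln4 in their groups; their part in Hapln4 was not tested.

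Hapln1, the cartilage-type link protein that also stabilises perineuronal nets, was measured at 22.9, 28.3, 28.7, 25.2 and 26.1 CPM in Nar and 23.4, 27.3, 27.3, 21.7 and 26.1 CPM in EAE. The groups overlapped, and the log2 fold change was 0.06 (SE 0.0894, 95% interval −0.13 to 0.25, edgeR adjusted p = 0.712). Nar 2 and 3 lay above all EAE samples and EAE 4 below all Nar samples.

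As shares of the summed FPKM of the 3 link protein genes, Hapln2 made up 64.5 to 71.3% in Nar (mean 67.8 ± 2.43, SD, n = 5) and 57.4 to 64.3% in EAE (62.0 ± 2.87). Hapln4 made up 26.3 to 32.5% in Nar (29.3 ± 2.20) and 32.8 to 39.2% in EAE (35.0 ± 2.61). The groups were apart in both shares by a narrow margin that rested on Nar 2. After the length correction they overlapped: the Hapln2 share was 64.7% in Nar 2 against 65.4% in EAE 4 and 65.0% in EAE 5, and the Hapln4 share was 32.3% in Nar 2 against 32.2% in EAE 5. Both shares move together by construction, were examined after the gene values were seen, and were not tested.

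**Figure D4:**
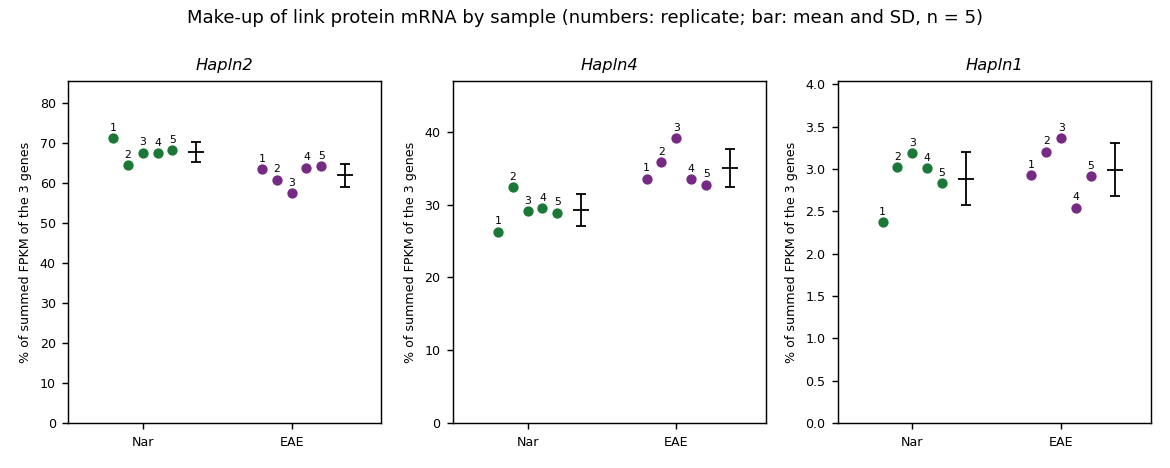
Share of each link protein gene in the summed FPKM of the 3 (percent, axes from 0), by sample numbered by replicate, with mean and SD (n = 5). The Hapln2 share is 64.5% or more in all Nar samples and 64.3% or less in all EAE samples, a margin that is lost after the length correction (EAE up to 65.4%, Nar from 64.7%). The Hapln1 shares overlap.

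Has2 codes for the hyaluronan synthase that makes the longest chains. Its counts were 5 to 17 reads a sample in Nar and 13 to 28 in EAE, which gives 0.406, 0.776, 0.935, 1.15 and 0.343 CPM in Nar and 1.12, 1.48, 0.741, 0.851 and 1.02 CPM in EAE. Nar 1 and Nar 5 lay below all EAE samples and the other 3 within their range. Its log2 fold change was −0.53 (SE 0.358, 95% interval −1.30 to 0.24, edgeR adjusted p = 0.397), and the width of that interval shows how little this depth allows for Has2. Exon overlap with Has2os, transcribed from the other strand, covers 4.30% of its exon bases.

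Lectican and link protein genes lie side by side in the mouse genome. In GRCm38, the build whose gene coordinates the table shares for all 10 genes, Bcan (chromosome 3, 87987531 to 88000230) and Hapln2 (88021750 to 88027583) are 21.5 kb apart. Ncan (chromosome 8, 70093085 to 70120873) and Hapln4 (70083457 to 70090862) are 2.22 kb apart, and Vcan (chromosome 13, 89655312 to 89742509) and Hapln1 (89539796 to 89611652) are 43.7 kb apart. Acan (chromosome 7, 79053483 to 79115099) ends 2 bases from Hapln3, which is read towards it from the other strand. In the 4 pairs, 0 other protein-coding genes lie in between. The neighbours' log2 fold changes, lectican first, were 0.02 and 0.25 for Bcan and Hapln2, −0.09 and −0.14 for Ncan and Hapln4, −0.16 and 0.06 for Vcan and Hapln1, and −0.22 and 0.10 for Acan and Hapln3, with 0 of the 8 genes passing the test. Tnr lies on chromosome 1 (159523769 to 159931729), Ptprz1 on chromosome 6 (22875502 to 23052916) and Has2 on chromosome 15 (56665627 to 56694539).

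How members varied within groups was described by the correlation of log2 CPM centred on the group means, over the 10 samples, which share libraries and depth. Tnr and Vcan were the pair most alike (Pearson r = 0.96), followed by Tnr and Ptprz1 (0.79) and Ptprz1 and Vcan (0.69). These are the longest genes of the set, and the samples differ in a length trend over all genes. These correlations are of values before the length correction. After it, Ptprz1 among EAE was highest in EAE 3 (204 CPM) and lowest in EAE 5 (173 CPM). Tnr and Vcan were then highest in EAE 4 (149.5 and 59.6 CPM), so the likeness of Ptprz1 to them is not shown for corrected values. The part of the length trend in these correlations was not tested. The lowest values were those of Hapln4 and Vcan (−0.71) and Hapln2 and Ncan (−0.70). Among 14094 other genes of at least 1 CPM, those most like each member by this measure were Fbxo38 (0.97), Dgki (0.97) and Slk (0.97) for Tnr, Fbxo38 (0.99), C1qtnf1 (0.97) and Dcst1 (0.97) for Vcan, and Slc9a3 (0.95), Gsk3b (0.95) and Ankrd50 (0.93) for Ptprz1. They were Gstm7 (0.98), Arsg (0.96) and Slc38a3 (0.96) for Bcan, Ube2c (0.93), Edem2 (0.92) and Ugdh (0.92) for Ncan, and Cog7 (0.94), Pygb (0.91) and Exoc3 (0.91) for Acan. For the link proteins they were Orc5 (0.94), mt-Nd3 (0.93) and Tspyl1 (0.92) for Hapln1, Atxn3 (0.92), Fam20a (0.92) and Cpne9 (0.92) for Hapln2, and Syt2 (0.96), Actr1a (0.96) and Asb13 (0.96) for Hapln4. Fbxo38 thus stood first for both Tnr and Vcan. Has2, below 1 CPM, was not searched.

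Around the members, 72 further genes of the pathway in 5 lists were examined, of which 67 were tested. Of these, 1 rose and 8 fell, against 1.58% and 2.36% of all genes tested. The lists were chosen with earlier results of these data known, so these counts are a description and not independent support. Their median log2 fold change was −0.10 against 0.02 over all genes. Of these 9, Dse and Itih5 kept their calls without any single sample. With the mitochondrial share as a covariate 0 of the 9 passed (edgeR adjusted p from 0.0677 for Dse to 0.559 for Stab1), but their sizes moved unequally. Calls over all genes dropped from 574 to 197 in that fit. Only EAE 3 of the EAE samples lay within the Nar range of the share, so the fit can hardly separate share from group. The log2 fold changes of Dse (−0.63), Mmp2 (−0.56), Chpf2 (−0.34), Ust (−0.20) and Cd44 (−0.73) stayed within 1.5 times those of the fit without it. Those of Stab1 (−0.31), Itih5 (−0.38), Timp2 (−0.14) and Spock3 (0.24) shrank by more.

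Enzymes that build and sulfate chondroitin chains held 3 of the 9. Of 23 tested, 3 fell and 0 rose, with a median of −0.12. Dse, the epimerase that turns chondroitin into dermatan sulfate, was at 5.14, 5.99, 5.47, 6.01 and 5.76 CPM in Nar and 8.82, 8.59, 9.24, 8.88 and 7.96 CPM in EAE. The groups were apart, and it fell by 0.62 on the log2 scale (SE 0.108, edgeR adjusted p = 0.00839). Chpf2, a subunit of the chain-extending polymerase, fell by 0.39 (SE 0.0849, edgeR adjusted p = 0.0248), and Ust, which sulfates uronic acid in these chains, by 0.30 (SE 0.0683, edgeR adjusted p = 0.0303), with groups apart in both. Leaving out Nar 1, 3 or 5 or EAE 5 ended the Chpf2 call (edgeR adjusted p 0.0577 to 0.0681), as did a replicate block (0.0545). Leaving out Nar 1, 3 or 5 or EAE 1 or 4 ended that of Ust (0.0648 to 0.0775). Papss2, a maker of the sulfate donor named after its value was seen, had 20.1 ± 2.48 against 25.5 ± 1.82 CPM (SD, n = 5 each) with groups apart and an edgeR adjusted p of 0.0540. It passed under 9 of the 23 other settings, among them the DESeq2 Wald test (adjusted p = 0.0143), limma-voom (0.0428), upper quartile factors (0.0473) and the length correction (0.0467).

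Hyaluronan synthesis, breakdown and receptor genes had 12 tested of 14, with 2 falling, 0 rising and a median of −0.02. Both are also expressed by macrophages. Cd44, the main hyaluronan receptor, was at 24.0, 22.3, 22.7, 48.4 and 21.3 CPM in Nar and 51.6, 45.7, 49.3, 55.7 and 62.4 CPM in EAE. Nar 4 lay within the EAE range and the other 4 Nar samples far below it, and Nar 4 also stood apart from them in the microglia and macrophage marker sum, whose part in Cd44 was not tested. Cd44 fell by 0.93 (SE 0.222, edgeR adjusted p = 0.0465), or by 1.23 without Nar 4. Stab1, a scavenger receptor gene, fell by 0.93 (SE 0.227, edgeR adjusted p = 0.0464), with groups apart. Whether its product binds hyaluronan was not examined here. Stab1 was at 14.8, 11.0, 9.55, 12.1 and 11.0 CPM in Nar and 18.2, 15.6, 15.7, 33.7 and 28.2 CPM in EAE. EAE 1, 2 and 3 thus lay near Nar 1, and EAE 4 and 5 far above. Its log2 fold change was −0.73 without EAE 4 and −0.89 with the length correction (edgeR adjusted p = 0.0176). The Cd44 call ended on leaving out any 1 of the 9 samples other than Nar 4 (edgeR adjusted p 0.0616 to 0.118), and the Stab1 call on leaving out Nar 1, 2, 3 or 5 or EAE 1, 4 or 5 (0.0631 to 0.113). Both also lost it with no filter on low counts (0.0639 and 0.0585). The synthase gene Has3, named after its value was seen, had 6.88 ± 0.588 against 6.04 ± 0.428 CPM (SD, n = 5 each, edgeR adjusted p = 0.365).

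Of 11 further matrix proteoglycan and neural matrix genes, all tested, 1 rose and 1 fell, with a median of −0.09. Itih5, of the family whose heavy chains are transferred to hyaluronan, was at 89.7, 96.6, 94.6, 104 and 88.6 CPM in Nar and 153, 113, 132, 188 and 192 CPM in EAE. The groups were apart, and it fell by 0.71 (SE 0.132, edgeR adjusted p = 0.0154). The fibroblast and meninges markers beside it summed to 80.6 to 116 CPM in Nar and 156 to 186 in EAE (8 of 8 tested, 5 fell, 0 at 0 reads); their part in Itih5 was not tested. Spock3, a testican proteoglycan, rose by 0.39 (SE 0.0872, edgeR adjusted p = 0.0273), from 169 ± 17.5 CPM in EAE to 221 ± 23.3 in Nar (SD, n = 5 each). Nar 4 was the lowest Nar sample, inside the EAE range, and leaving out Nar 1, 2, 3 or 5 or EAE 1, 4 or 5 ended the call (edgeR adjusted p 0.0518 to 0.105). Mature oligodendrocyte markers summed to 30771 to 37220 CPM in Nar and 23296 to 32140 in EAE. Neuron markers summed to 8563 to 10099 CPM in Nar and 8028 to 10577 in EAE. The part of either cell type in Spock3 was not tested. Tnc, the tenascin of reactive astrocytes and fibroblasts, named after its value was seen, had 8.80 ± 3.17 against 14.8 ± 2.80 CPM (SD, n = 5 each, log2 fold change −0.75, edgeR adjusted p = 0.0673). Tnc passed under 6 other settings: the DESeq2 Wald test (adjusted p = 0.01065), limma-voom (0.0385), edgeR with a replicate block (0.0271), with the length correction (0.0453), without EAE 3 (0.0371) and without Nar 4 (0.00101).

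Chondroitin receptor genes and the genes of Ptprz1 ligands gave 0 calls among 9 tested, with a median of 0.09. At an unadjusted edgeR p below 0.05 there were 5 of the 9, where 22.5% of all genes tested lay below that value. The smallest p-values were those of the axonal adhesion genes Nrcam (log2 fold change −0.35, edgeR adjusted p = 0.0826) and Cntn1 (−0.18, edgeR adjusted p = 0.118), which code for partners of the Ptprz1 extracellular domain. Nrcam passed by the DESeq2 Wald test, with a replicate block, with the length correction and without Nar 4, and Cntn1 without Nar 2 (edgeR adjusted p = 0.0169).

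Proteases that cleave lecticans and their inhibitors had 12 tested of 13, with 2 falling, 0 rising and a median of −0.31. Mmp2, a gelatinase that also cuts brevican, was at 7.71, 6.77, 5.74, 6.07 and 5.63 CPM in Nar and 8.88, 7.69, 10.5, 11.4 and 9.44 CPM in EAE, with only Nar 1 inside the EAE range, by a narrow margin over EAE 2. It fell by 0.58 (SE 0.137, edgeR adjusted p = 0.0336). Its inhibitor Timp2 fell by 0.26 (SE 0.065, edgeR adjusted p = 0.0423), with groups apart at 415 ± 19.3 against 497 ± 44.3 CPM (SD, n = 5 each). Leaving out Nar 3 or 5 or EAE 1, 4 or 5 ended the Mmp2 call (edgeR adjusted p 0.0570 to 0.0908), and Nar 1, 3 or 5 or EAE 1, 4 or 5 that of Timp2 (0.0656 to 0.103). With a replicate block neither passed (edgeR adjusted p = 0.0679 and 0.0725), and Timp2 did not pass with the length correction (0.0747). The aggrecanase gene Adamts5, named after its value was seen, stood at −0.34 on the log2 scale (edgeR adjusted p = 0.180, or 0.0151 without Nar 4).

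**Figure D5:**
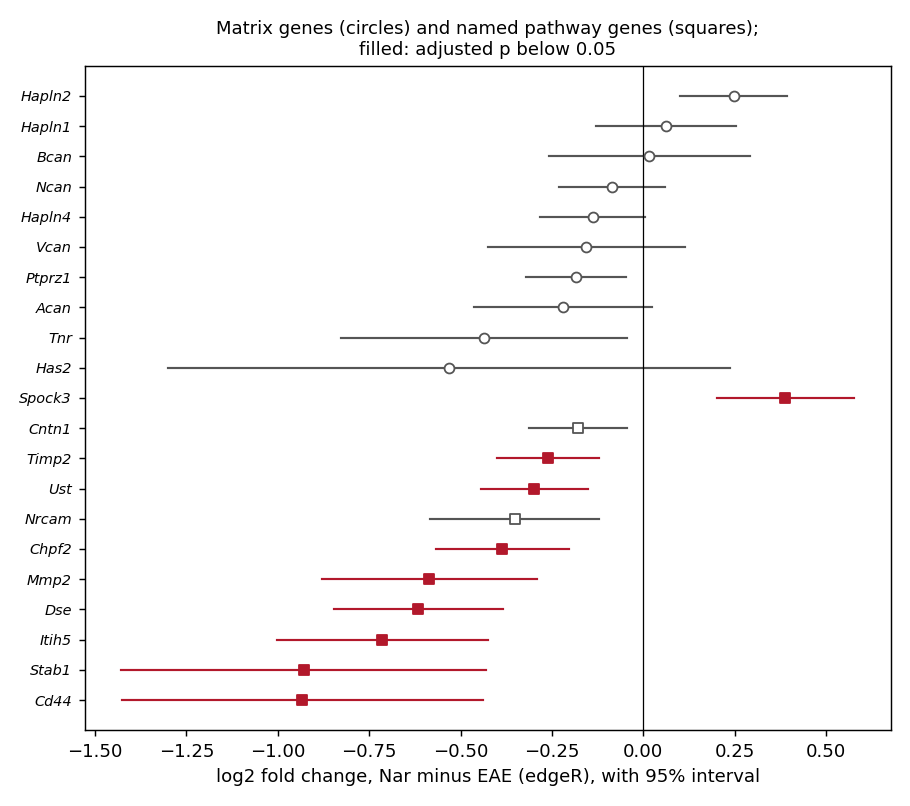
Log2 fold change (Nar minus EAE) with its 95% interval from edgeR for the 10 matrix genes (circles) and the 11 pathway genes named by rule (squares); filled marks passed an adjusted p of 0.05. No circle is filled, while 9 squares are, 1 of them (Spock3) above 0.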

How the data were processed

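The table the authors deposited lists 21936 genes, with 10 columns of raw read counts and 10 of FPKM, per the file headers, and a gene length. Per the submitters' processing notes, cutadapt and HISAT2 2.0.5 were used; counter and annotation: not given in the sources used here. Each FPKM value of the authors equals the count per kilobase of deposited length and M counted reads (100% of 153986 values above 0.1 within 1%). Samples were grouped by title.

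The test on the counts was that of edgeR 4.0.16 under R 4.3.3 (filterByExpr, TMM, robust quasi-likelihood fit, Nar minus EAE, Benjamini-Hochberg over 14595 genes, threshold 0.05). Library totals behind CPM are TMM-scaled, with a prior count of 2 on the log2 scale. SE is the size of the log2 fold change over the square root of F, and 95% intervals are not adjusted. Alternatives used DESeq2 1.42.0 and limma 3.58.1. The length correction removes each sample's loess trend (span 0.5) of log2 CPM on log2 length through offsets and was added after the data were seen. The trend was not centred, so the overall level of each sample moved with it.

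The 10 genes and the lists were chosen with earlier results of these data known. Named pathway genes are those past the threshold in each list (the 4 of smallest p had more than 6 passed), or the 2 of smallest p where none passed; likeness lists take the 3 genes of highest r. The fits were tested on simulated data. Every pair of same-group samples had a chi-square of at least 4.16 per degree of freedom, above counting noise, so no 2 samples were merged as repeats of 1 library.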

Additional observations from a re-analysis of the deposited data

Results flagged for a closer look

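None of the 10 matrix genes had a sample far from the rest of its group in CPM, by Dixon's test in each group of 5. Among the pathway genes named by rule, 3 values stood far from the other 4 samples of their group, out of 42 groups examined over members and pathway genes, where chance flags about 1 in 20. Cd44 was at 48.4 CPM in Nar 4, against 21.3 to 24.0 in the other Nar samples. Spock3 was at 180.2 CPM in Nar 4, against 224 to 237 in the other Nar samples. Cntn1 was at 458 CPM in Nar 2, against 372 to 395 in the other Nar samples.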

How the results depend on the processing

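The count of members called was 0 under 20 of 23 settings and 1 (Hapln2) with the DESeq2 Wald test, limma-voom and without Nar 4, so leaving out single samples gave 0 to 1. The 574 calls over all genes became 1307 with the DESeq2 Wald test and 881 with limma-voom. They became 197 with the mitochondrial share as a covariate (129 higher, 68 lower). Exact permutation gave 0, its smallest possible p being 0.137 after adjustment over all genes. With the length correction there were 1059 calls (598 higher, 461 lower). That fit also moved the median log2 fold change over all genes from 0.016 to 0.047, so its calls do not reflect length alone. Leaving out single samples gave 161 to 1486. The 9 calls in the pathway lists became 14 with the DESeq2 Wald test, 0 with the mitochondrial share as a covariate and 0 by exact permutation, and 2 to 16 without single samples.

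Over these settings, 211 log2 fold changes of the 10 genes kept their sign and side of the threshold, 3 newly passed and 13 turned sign. The log2 fold change of Bcan turned to −0.0018 with upper quartile factors, −0.25 with the mitochondrial covariate, and −0.019 with limma-trend on log2 FPKM with 1 or 0.1 added and with no filter, and ran from −0.074 to 0.11 without single samples. With the mitochondrial covariate Vcan turned to 0.17, Tnr to 0.055 and Hapln1 to −0.056. Hapln3 turned sign without Nar 3, and ran from −0.071 to 0.24 without single samples. The cause was not tested. Has2 has no value with a mean of at least 1 CPM or of 0.5 FPKM. As a replicate block, the number gave 636 calls over all genes, 0 among members and 8 in the pathway lists. Deviations of samples with the same number correlated at −0.23 to 0.16, and 0 of 5 samples correlated best with their own number. No pairing by number was thus seen, which does not show that the samples are unpaired. Depth limits Has2 most, at 5 to 28 reads per sample.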
